A study of Drosophila melanogaster with 6 samples.

Results

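The genes described here are the cytosolic glutathione transferases of *Drosophila melanogaster*, measured by RNA-seq in wing imaginal discs, the epithelial sacs of the larva from which wing and notum are made. They were chosen by FlyBase symbol alone, as every gene named Gst with a class letter (D, E, O, S, T or Z) and a number, which gave 35 of 17525 listed genes: 11 delta, 14 epsilon, 3 omega, 1 sigma, 4 theta and 2 zeta genes. Control discs carried the MS1096-Gal4 driver alone, and the other discs carried MS1096-Gal4 with an RNAi transgene against dNKAP, with 3 libraries in each group. MS1096-Gal4, an insertion at Bx, drives expression mainly in the pouch of the disc. Whole discs therefore include cells without the hairpin, and in bulk RNA a change in the number of expressing cells and a change of RNA per cell cannot be told apart. Neither the age of the larvae nor whether the replicates came from separate crosses is given in the sources used here, and the spread behind the p-values, which is that between these libraries, may be technical.

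Glutathione transferases join the tripeptide glutathione to electrophilic compounds, which makes them more soluble and ready for export. The delta and epsilon classes are the large insect classes, known for resistance to insecticides and for clearing products of lipid peroxidation, and most of their genes lie side by side in clusters. The omega, sigma, theta and zeta classes are shared with other animals. In flies several delta and epsilon genes are targets of the stress regulator CncC, the counterpart of mammalian Nrf2, and a GstD1 reporter is widely used as a sign of oxidative stress.

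Levels are FPKM, fragment numbers scaled by library and by transcript length, summed over the transcripts of a gene. Changes are differences of log2(FPKM + 0.5), a scale that shrinks the change of weakly expressed genes, and were tested with limma over all 6506 genes whose mean reached 1 FPKM, with Benjamini-Hochberg adjustment and a threshold of 0.05. Over all these genes 209 were higher and 33 lower in dNKAP RNAi, against 187 and 62 after quantile normalization and 203 and 61 after median-ratio scaling. Read depth times length summed to 4.14 to 6.44 gigabases per library. The target CG6066 (dNKAP) fell from 24.4 ± 2.01 to 12.9 ± 1.33 FPKM (SD, n = 3 each; limma adjusted p = 0.0146), a call that ended on leaving out control replicate 1 (0.0635), control replicate 3 (0.0563) or dNKAP RNAi replicate 2 (0.0640). All 9 wing disc markers examined (vg, nub, sd, ap, wg, rn, Dll, hth and tsh) were above 0 in every library, with a summed level of 646 to 662 FPKM in controls against 613 to 640 FPKM in dNKAP RNAi. Of these, hth was lower without overlap, at 106.4 ± 5.72 FPKM in controls against 46.7 ± 19.7 FPKM in dNKAP RNAi (limma adjusted p = 0.108). Groups were also apart for tsh, at 82.1 ± 1.83 FPKM in controls against 74.5 ± 5.40 FPKM in dNKAP RNAi. The other 7 overlapped between groups, and none of the 9 passed. Values of 0 need care in these tables: Act5C, an actin gene that all cells use, is listed at 0 in all 6 libraries.

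Of the 35 genes, 21 reached the mean of 1 FPKM and were tested, 8 had values above 0 but stayed under it, and 6 were listed at 0 in every library. The epsilon genes GstE3, GstE6 and GstE8 and the theta gene GstT1 rose in dNKAP RNAi, and no member fell (limma); GstD1 and GstZ1 were the members lower at an unadjusted p under 0.05. This is 4 of 21 tested members, or 19.0%, where 3.21% of all tested genes were called higher, 0.507% lower and 3.72% in either direction. GstD5 entered the test only through its level in dNKAP RNAi, and 4 of the 20 members with a control mean of at least 1 FPKM were called. The median log2 change was 0.51 over the 21 tested members, 0.40 over those 20, and 0.03 over all tested genes. The 3 dNKAP RNAi libraries lay above the 3 controls for 8 of the 21 members (7 of the 20) and below them for 2, against 17.3% and 11.2% of all tested genes.

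In control discs the family was dominated by 1 gene. GstD1, the best studied delta enzyme, which acts on DDT and on lipid peroxidation products, stood at 1846, 1829 and 1977 FPKM in control replicates 1 to 3, and ranked 53 of 6506 tested genes by mean level over both groups. It held 62.3% to 73.8% of the summed FPKM of the family in controls. GstE12 at 220.3 ± 18.7 FPKM and GstO2 at 167.4 ± 4.57 FPKM (SD, n = 3 each) came next among genes with steady values, and their control libraries did not overlap. GstO3 lay above both in control replicates 1 and 2, at 318 and 359 FPKM, but was at 44.5 FPKM in control replicate 3. A middle group followed: GstD3 at 75.4 ± 26.5, GstT1 at 43.7 ± 1.73, GstT4 at 40.9 FPKM (32.7 to 53.4) and GstE1 at 31.1 ± 8.87 FPKM. Within it GstT4 overlapped each of the other 3, and GstD3 lay above GstT1 and GstT1 above GstE1 without overlap. GstO1 stood at 12.3 ± 0.783 FPKM, and GstE8, GstD10, GstZ1, GstE6, GstE5 and GstE3 had control means between 4.08 and 6.55 FPKM, with overlap between neighbours in this order. The tested members left over, GstZ2, GstT2, GstD2, GstD4 and GstD5, had control means under 3 FPKM. GstS1, listed at 0 in most libraries, has no place in this order.

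**Figure D1:**
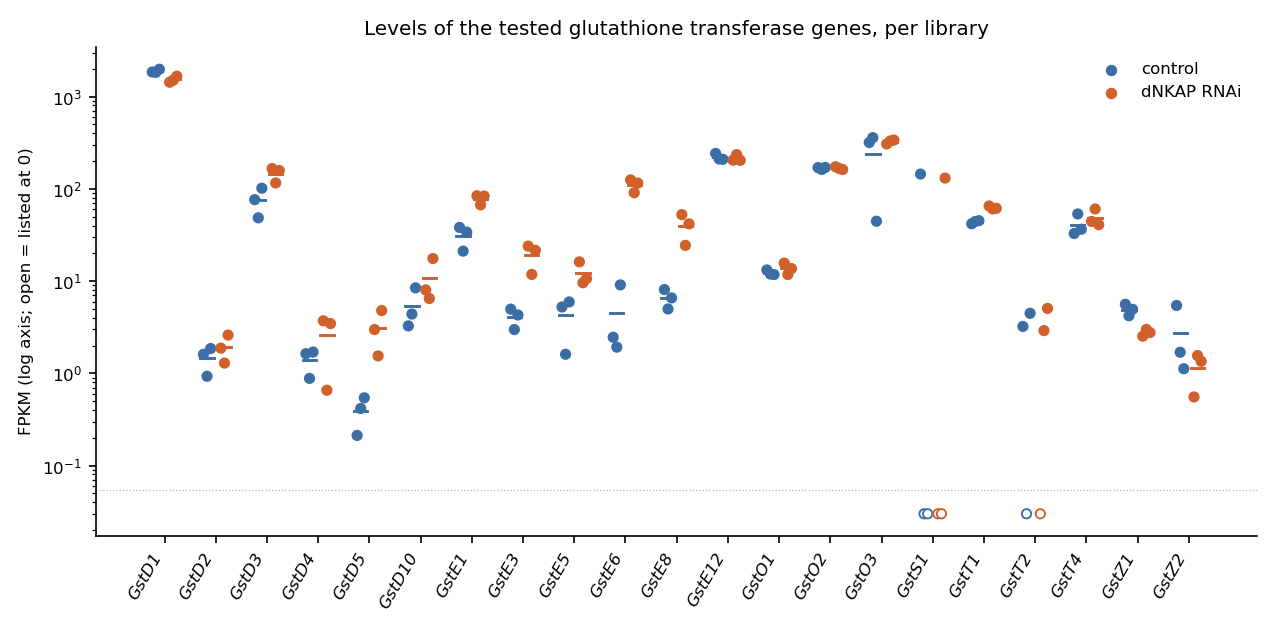
FPKM of the 21 tested glutathione transferase genes in each library, on a log axis, with controls in blue and dNKAP RNAi in orange; short bars are group means and open points at the foot are values listed at 0. The orange points of GstE1, GstE3, GstE5, GstE6 and GstE8 all lie above the blue ones, while those of GstE12 and GstO2 overlap them.

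All 3 epsilon genes that rose lie in 1 cluster. GstE6, a single-exon gene of that cluster, was at 2.46, 1.92 and 9.08 FPKM in controls against 124.9, 90.6 and 115.3 FPKM in dNKAP RNAi. Every dNKAP RNAi library was far above every control, and control replicate 3 stood above the other controls. The ratio of means was 24.6, and the log2 change of 4.75 (SE 0.55, 95% interval 3.35 to 6.14, limma adjusted p = 0.0129) ranked 27 of 6506 tested genes by size of rise. The read depth behind these values was 15.2 to 53.6 reads per base in controls and 511 to 671 in dNKAP RNAi. By mean level in dNKAP RNAi GstE6 was the sixth member of the family, after GstD1, GstO3, GstE12, GstO2 and GstD3.

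GstE8 was at 8.09, 4.98 and 6.57 FPKM in controls against 52.5, 24.4 and 41.7 FPKM in dNKAP RNAi. The groups were well apart, with dNKAP RNAi replicate 2 the lowest of its group. Its log2 change was 2.46 (SE 0.33, limma adjusted p = 0.0209); with exact matches alone it was not tested. GstE3 was at 4.96, 2.98 and 4.29 FPKM in controls against 23.9, 11.8 and 21.5 FPKM in dNKAP RNAi, again with replicate 2 the lowest of the dNKAP RNAi libraries, and it rose by 2.06 (SE 0.32, limma adjusted p = 0.0346). These are copies of a similar sequence next to each other, and how reads shared between copies were divided is not given, so their separate values are uncertain.

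GstE1 and GstE5, in the same cluster, had separate groups without passing the test. GstE1 was at 38.2, 21.1 and 33.9 FPKM in controls against 84.0, 66.95 and 83.4 FPKM with dNKAP RNAi (log2 change 1.35, SE 0.24, limma adjusted p = 0.0542). It passed, at 0.0301, when genes listed at 0 in any library were left out. Its exons overlap those of GstE10 on the other strand, and strand use is not stated. GstE5 was at 5.24, 1.61 and 5.94 FPKM in controls against 16.1, 9.58 and 10.7 FPKM with dNKAP RNAi (log2 change 1.53, SE 0.49, limma adjusted p = 0.190). Leaving out libraries ended calls. GstE6 had an adjusted p of 0.0622 without control replicate 1 and of 0.0619 to 0.0710 without any 1 dNKAP RNAi library, GstE8 of 0.0632 to 0.0950 and GstE3 of 0.0891 to 0.129 without any 1 library other than dNKAP RNAi replicate 2. GstE1 passed, at 0.0432, without control replicate 2.

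**Figure D2:**
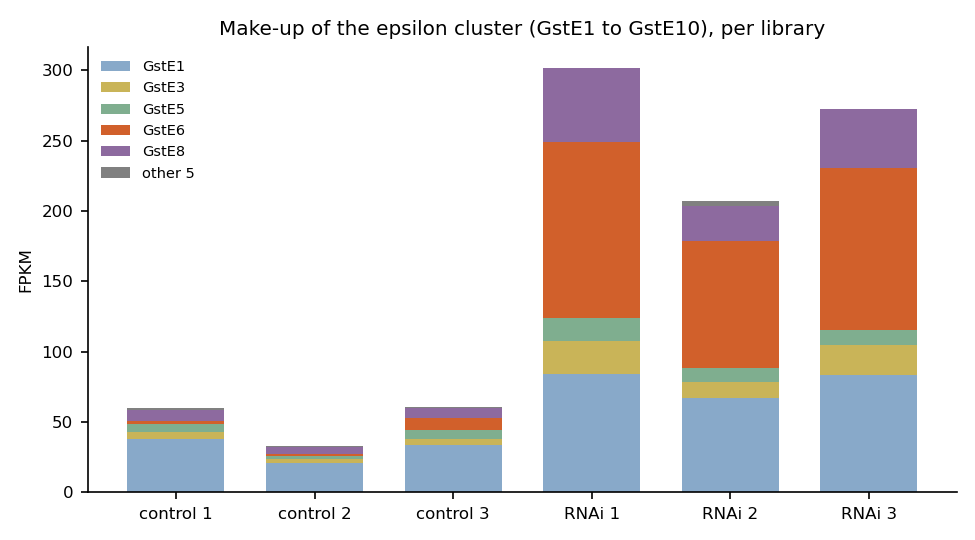
Stacked FPKM of GstE1 to GstE10 in each library, with a colour for each of GstE1, GstE3, GstE5, GstE6 and GstE8 and the other 5 genes in grey. The bars total 33.1 to 60.4 FPKM in controls against 207 to 301 FPKM in dNKAP RNAi, and the orange share of GstE6 grows from at most 15.0% to at least 41.4%.

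The 10 genes GstE1 to GstE10 lie in 1 run on chromosome 2R, from 18396638 to 18409835 (dm6 coordinates), all on the plus strand except GstE10. Their summed level was 59.8, 33.1 and 60.4 FPKM in controls against 301, 207 and 273 FPKM in dNKAP RNAi, a ratio of means of 5.10, and no library of one group reached the other. The make-up changed as well as the total. GstE1 was the most abundant gene of the run in every control, and GstE6 in every dNKAP RNAi library. GstE6 held 4.11%, 5.81% and 15.0% of the run in controls and 41.4%, 43.7% and 42.3% in dNKAP RNAi.

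Genes under the mean of 1 FPKM needed for a test lay between the genes with separate groups. GstE2, between GstE1 and GstE3, was above 0 in 2 libraries only, at 0.0483 FPKM in control replicate 2 and 0.0696 FPKM in dNKAP RNAi replicate 3. GstE4, between GstE3 and GstE5, stayed between 0.0708 and 0.312 FPKM in all 6 libraries, with a control, replicate 2, the highest. GstE7, between GstE6 and GstE8, was at 0.799, 0.117 and 0.526 FPKM in controls against 0, 3.84 and 0 FPKM in dNKAP RNAi. In the dNKAP RNAi libraries where GstE7 is listed at 0 it shares an assembled locus with GstE8, and an extra transcript of 18.6 and 13.5 FPKM, 687 and 724 bases long, is counted under GstE8 there. The sum of GstE7 and GstE8, which does not depend on that assignment, was 7.03 ± 1.896 FPKM in controls against 40.8 ± 12.2 FPKM with dNKAP RNAi (SD, n = 3 each), with no overlap. The 3 tested genes within 20 kb on either side of the run that are not glutathione transferases, Dp1, CG5174 and PIG-O, had log2 changes of -0.27, -0.07 and -0.31 and none passed the threshold.

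**Figure D3:**
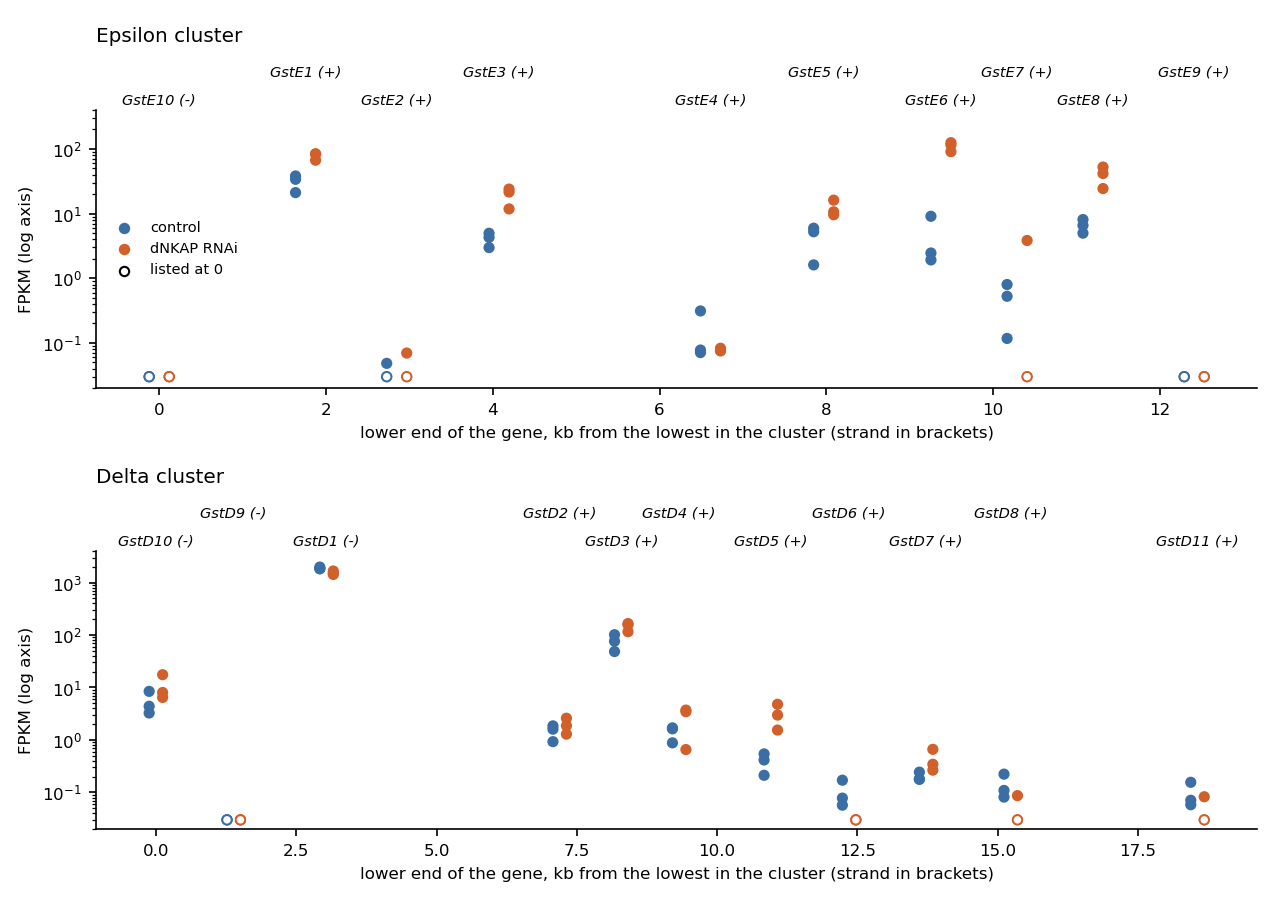
FPKM of the epsilon and delta clusters along the chromosome, on log axes, with genes placed by distance in kb from the lowest member, strand in brackets, controls in blue, dNKAP RNAi in orange and values listed at 0 as open points at the foot. In the epsilon cluster GstE1, GstE3, GstE5, GstE6 and GstE8 are higher in every dNKAP RNAi library than in any control. GstE2, GstE4 and GstE7 between them average under 1 FPKM, with GstE7 at 3.84 FPKM in dNKAP RNAi replicate 2.

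GstE12, the 1 tested epsilon gene outside the run, on its own at 24766718 to 24768172 of chromosome 2R, was at 241.9, 210.1 and 209.0 FPKM in controls against 204.3, 234.9 and 203.5 FPKM in dNKAP RNAi. The groups overlapped, and the log2 change was -0.04 with a 95% interval of -0.27 to 0.19, which does not reach the change of GstE3. Its exons overlap those of CG3894 on the other strand, and it is read from 1 of its annotated transcripts in every library. GstE6 stood at 0.914% to 4.35% of GstE12 in controls and at 38.6% to 61.1% in dNKAP RNAi. GstE14, which acts in ecdysteroid synthesis in the prothoracic gland, was at 0.207 FPKM in control replicate 2 and listed at 0 elsewhere. GstE11 and GstE13 were listed at 0 throughout.

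Fat body expresses many detoxification genes and can be carried over in dissection. Its markers summed higher in every dNKAP RNAi library than in any control. The 6 fat body markers summed to 1.94 to 73.8 FPKM in controls and to 173 to 590 FPKM in dNKAP RNAi. Of the 3 above 0, Fbp1 was at 25.1, 10.9 and 0.542 FPKM in controls against 62.5, 137.2 and 561 FPKM in dNKAP RNAi, and Lsp1alpha and Lsp1gamma overlapped between groups; Lsp1beta, Lsp2 and Fbp2 are listed at 0 in all libraries. None of the 3 passed the threshold. Among controls, replicate 1 had the highest fat body sum and replicate 3 the lowest. GstE3 and GstE8 were highest in control replicate 1, at 4.96 and 8.09 FPKM, and GstE6 was highest in control replicate 3, at 9.08 FPKM. Within dNKAP RNAi, replicate 3 had the highest fat body sum and replicate 2 the lowest. Replicate 2 was also the lowest of its group for GstE3, GstE6 and GstE8. Replicate 1 had the highest GstE3, GstE6 and GstE8 of its group and the highest Lsp1alpha (97.9 FPKM) but the lowest Fbp1. Midgut markers summed to 0.639 to 80.98 FPKM in dNKAP RNAi and to at most 2.10 FPKM in controls, with the high value in replicate 2 alone, the dNKAP RNAi library lowest for GstE3, GstE6 and GstE8. The part of these markers in the epsilon values was not tested.

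The delta genes, on chromosome 3R from 12364776 to 12385624, did not pass the test in either direction. GstD1 was at 1429, 1504 and 1662 FPKM in dNKAP RNAi, below every control (log2 change -0.30, SE 0.08, 95% interval -0.49 to -0.11, limma adjusted p = 0.119). Its deposited confidence bounds were within 4.26% to 4.41% of the value in each library. GstD3, the second delta gene by level and 1 of the intronless members, was at 76.3, 48.4 and 101.5 FPKM in controls against 165.7, 115.8 and 157.8 FPKM with dNKAP RNAi (log2 change 1.00, SE 0.30, limma adjusted p = 0.169). The groups did not overlap for either gene, and their order was opposite: GstD3 stood at 2.65% to 5.13% of GstD1 in controls and at 7.70% to 11.6% in dNKAP RNAi.

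The other delta genes were low. GstD5 was at 0.212, 0.415 and 0.542 FPKM in controls against 2.98, 1.54 and 4.79 FPKM in dNKAP RNAi, with separate groups (log2 change 1.93, SE 0.45, limma adjusted p = 0.0938, and 0.0445 when genes listed at 0 in any library were left out). Part of it in dNKAP RNAi replicates 1 and 3 comes from assembled transcripts of 1459 to 1526 bases, longer than the annotated 840 bases, in a locus shared with GstD6. GstD6 is listed at 0 there. The sum of GstD5 and GstD6 was 0.492 ± 0.212 FPKM in controls against 3.10 ± 1.62 FPKM in dNKAP RNAi (SD, n = 3 each), with no overlap. GstD10 was at 3.26 to 8.43 FPKM in controls against 6.47 to 17.5 FPKM in dNKAP RNAi, and GstD2 and GstD4 at 0.881 to 1.86 FPKM in controls against 0.656 to 3.71 FPKM in dNKAP RNAi, all with overlapping groups. GstD6, GstD7, GstD8 and GstD11 stayed under 1 FPKM in every library, and GstD9 was listed at 0 in all 6, where it shares an assembled locus with GstD1. Of the 6 tested neighbours within 20 kb that are not glutathione transferases, none passed. For CG10038, MBD-R2, Cyp9f3, Cyp9f2 and DNAlig3 every dNKAP RNAi library lay above every control, as for 17.3% of all tested genes. The groups of CG4115 overlapped. The cytochrome P450 genes Cyp9f3 (log2 change 1.26) and Cyp9f2 (1.10) and the DNA ligase gene DNAlig3 (0.80) had limma adjusted p of 0.204, 0.0918 and 0.0539.

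**Figure D4:**
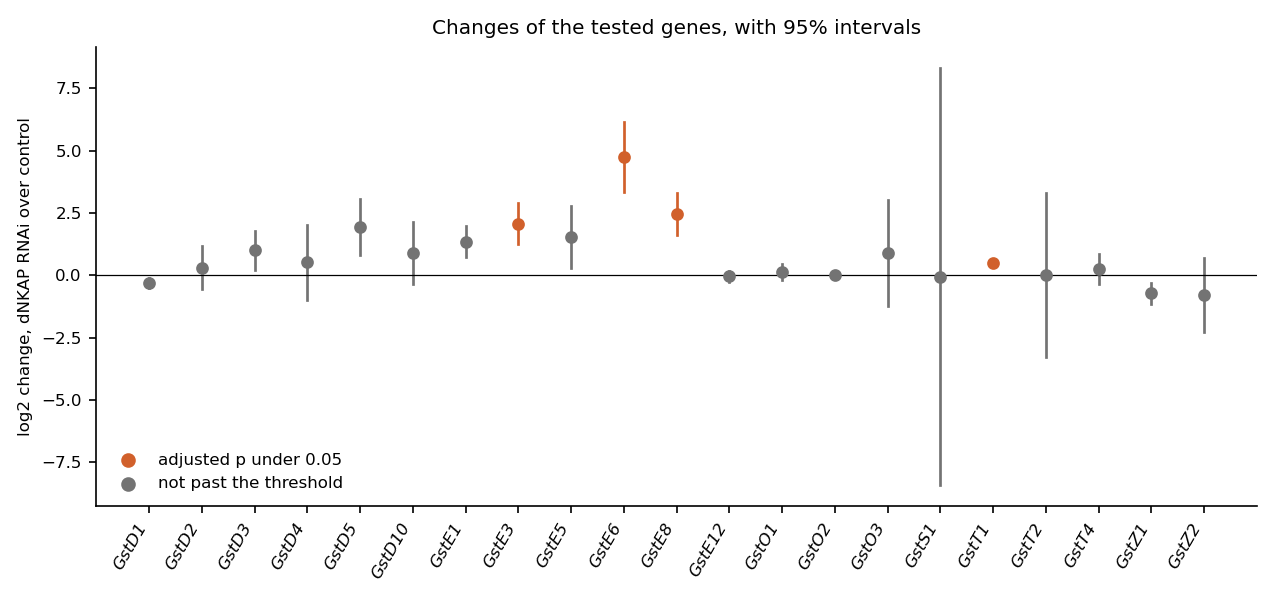
Log2 change (dNKAP RNAi over control, on the log2(FPKM + 0.5) scale) of the 21 tested genes, with 95% intervals from the limma fit; orange points passed an adjusted p of 0.05. GstT1 has the narrowest interval among the genes that passed, and the intervals of GstS1 and GstT2 are wide because both are listed at 0 in some libraries.

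The theta gene GstT1 rose with little spread between libraries. It was at 41.8, 44.2 and 45.1 FPKM in controls against 65.1, 60.5 and 61.4 FPKM in dNKAP RNAi, with SDs of 1.73 and 2.43 FPKM and no overlap. The log2 change was 0.51 (SE 0.06, 95% interval 0.36 to 0.65, limma adjusted p = 0.0125), a ratio of means of 1.43. The limma adjusted p stayed between 0.0362 and 0.0487 without each library in turn, and was 0.136 with a replicate block, which ended the call. GstT1 has 4 exons and lies on chromosome 2R from 9605988 to 9607184, where no exon of another gene overlaps it. Its neighbour GstT2, just downstream on the same strand, was at 3.22, 0 and 4.47 FPKM in controls against 0, 2.91 and 5.05 FPKM in dNKAP RNAi, and shares an assembled locus with GstT1 in control replicate 2, where it is listed at 0. The sum of both genes was 46.3 ± 2.90 FPKM in controls against 65.0 ± 1.52 FPKM with dNKAP RNAi (SD, n = 3 each) and did not overlap. None of the 6 tested neighbours of the pair within 20 kb passed. GstT4, on chromosome X, was at 32.7, 53.4 and 36.4 FPKM in controls against 44.3, 60.4 and 40.8 FPKM in dNKAP RNAi, with overlapping groups (limma adjusted p = 0.594). In dNKAP RNAi replicate 2, 34.7 FPKM of its value came from an assembled transcript of 583 bases, against 1220 annotated, found in no other library. With exact matches to the annotation alone the log2 change of GstT4 was -0.15 in place of 0.26. GstT3 was listed at 0 throughout.

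None of the omega genes passed the test. GstO2 was at 169.7, 162.2 and 170.4 FPKM in controls against 173.4, 166.2 and 161.6 FPKM in dNKAP RNAi, and its 95% interval of -0.13 to 0.12 on the log2 scale is the narrowest of the family. Both annotated transcripts were read in every library, the longer at 21.3 to 26.7 FPKM and the shorter at 137.05 to 148.1 FPKM. GstO1 was at 12.3 ± 0.783 and 13.7 ± 1.95 FPKM (log2 change 0.14, 95% interval -0.17 to 0.46). GstO3 was at 317.6, 358.6 and 44.5 FPKM in controls against 306.5, 329.8 and 337.5 FPKM in dNKAP RNAi; its log2 change was 0.91 with all libraries and -0.06 without control replicate 3, and the call was the same, with limma adjusted p of 0.592 and 0.725. The next omega gene in the run, se, which makes an eye pigment precursor, does not carry the Gst name and is listed at 0 in all libraries; its exons overlap those of GstO2.

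Both zeta genes were lower on average. GstZ1, of the class that works as maleylacetoacetate isomerase in tyrosine breakdown, was at 5.60, 4.21 and 4.93 FPKM in controls against 2.52, 2.99 and 2.76 FPKM in dNKAP RNAi. The groups did not overlap, and the log2 change was -0.73 (SE 0.16, 95% interval -1.13 to -0.32, limma adjusted p = 0.0867). Its p fell to 0.0431 when genes listed at 0 in any library were left out and to 0.0456 after quantile normalization. GstZ2 was at 5.43, 1.69 and 1.12 FPKM in controls against 0.554, 1.56 and 1.35 FPKM in dNKAP RNAi, with overlapping groups. The sigma gene GstS1, whose product is abundant in flight muscle of adult flies, was at 144.4 FPKM in control replicate 1 and 130.7 FPKM in dNKAP RNAi replicate 3 and listed at 0 in the other 4 libraries. In both libraries with a value it came from 1 assembled transcript of 871 bases, shorter than the annotated 1461 bases, and no direction can be read from it.

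**Figure D5:**
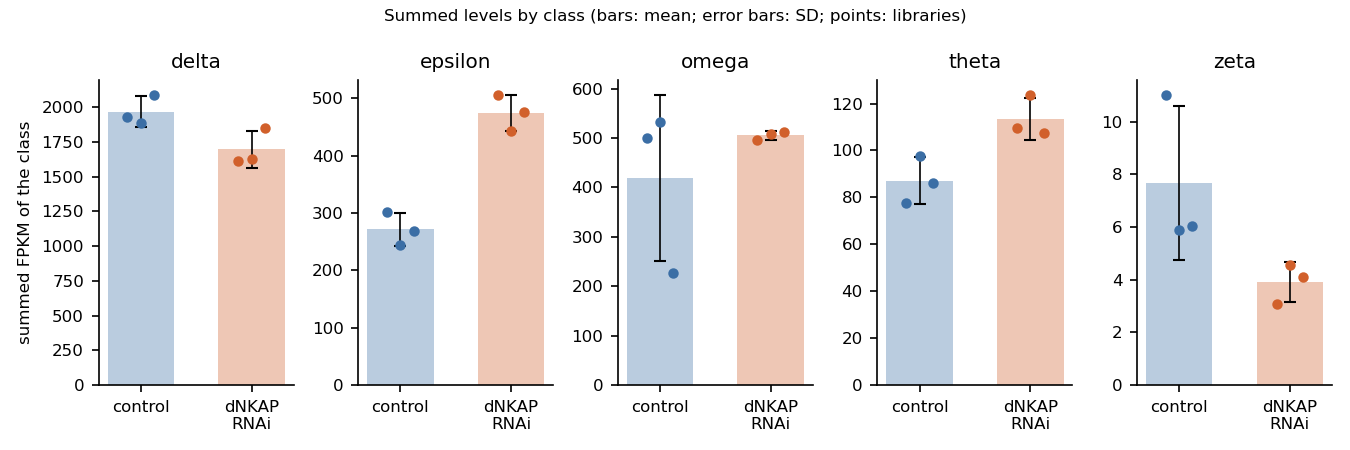
Summed FPKM of the delta, epsilon, omega, theta and zeta classes, with bars for the mean of 3 libraries, error bars for the SD and points for libraries, each axis starting at 0. Epsilon and theta libraries of dNKAP RNAi lie above all controls, delta and zeta libraries below them, and the low omega control is replicate 3. The theta value of dNKAP RNAi replicate 2 includes a GstT4 transcript assembled in that library alone.

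Summed over the family, all 35 genes added up to 2803 ± 146 FPKM in controls against 2838 ± 210 FPKM with dNKAP RNAi (SD, n = 3 each), with overlapping groups. Epsilon genes went from 271 ± 29.2 to 475 ± 31.9 FPKM and theta genes from 87.1 ± 9.98 to 113 ± 9.02 FPKM, without overlap. The theta sum of dNKAP RNAi replicate 2, 123.8 FPKM, includes 34.7 FPKM of a GstT4 transcript assembled in that library alone. Without this transcript that library would lie below control replicate 2, at 97.6 FPKM, and the theta groups would overlap. Delta genes were at 1969 ± 109 and 1697 ± 132 FPKM, and zeta genes at 7.66 ± 2.92 and 3.91 ± 0.753 FPKM, in both cases with every dNKAP RNAi library below the controls. The delta sum follows GstD1: without it, the other 10 delta genes stood at 84.5 ± 29.5 FPKM in controls against 165 ± 34.0 FPKM in dNKAP RNAi. Most of that was GstD3, at 75.4 ± 26.5 and 146 ± 26.8 FPKM, which did not pass (limma adjusted p = 0.169). Omega genes were at 420 ± 168 and 505 ± 8.85 FPKM, and at 179.7 ± 4.89 and 180.8 ± 7.32 FPKM without GstO3. GstD1 held 52.4% to 55.5% of the family in dNKAP RNAi, below its share in every control. These sums are descriptions, with no test.

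Members also differ in gene structure. The 16 members with a single exon are GstD2 to GstD8 and GstE1 to GstE9, of which 9 were tested. All 9 had a higher mean log2 value in dNKAP RNAi and 3 passed. Over all tested genes 3.21% were called higher and the median log2 change was 0.03. The 7 untested ones averaged under 1 FPKM. Their means were lower in dNKAP RNAi for GstD6, GstD8 and GstE4, higher for GstD7, GstE2 and GstE7, and 0 for GstE9. In dNKAP RNAi replicates 1 and 3 GstD6 and GstE7 are listed at 0 in loci shared with GstD5 and GstE8. The means of GstD6 and GstE7 therefore depend on how transcripts were assigned. Neighbouring copies may share reads, so the 9 are not separate observations. Of the 19 members with introns 12 were tested, 6 had a higher and 6 a lower mean log2 value, and 1 passed, GstT1. Among the 9 is GstD5, which was tested only because of its level in dNKAP RNAi. The intronless genes all lie in the delta and epsilon clusters, which also hold members with introns, of which GstD1 and GstD10 were tested (log2 changes of -0.30 and 0.90).

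Among genes of related lists, both tested export pumps rose, where 3.21% of all tested genes were called higher. MRP, the fly counterpart of the transporters that carry glutathione conjugates out of cells, was at 27.4, 22.1 and 27.9 FPKM in controls against 75.6, 72.9 and 87.7 FPKM in dNKAP RNAi. Its log2 change was 1.59 (SE 0.12, limma adjusted p = 0.00329), and the adjusted p stayed between 0.00805 and 0.0252 without each library in turn; with exact matches alone it was 0.122. Mdr49, another ABC transporter, rose, with 17.8 to 20.5 FPKM in controls against 29.1 to 37.4 FPKM with dNKAP RNAi (limma adjusted p = 0.0292), a call that ended without any 1 library (0.0523 to 0.104), and its exons overlap those of Sans. The limma adjusted p of Mdr49 was 0.0839 with no filter and 0.183 with a replicate block. Mdr50 and Mdr65 were under 1 FPKM and were not tested. Of 35 Ugt genes, which attach sugars to similar substrates, 4 were tested and 1 rose, Ugt302C1 from 27.4 ± 3.23 to 53.4 ± 8.51 FPKM (limma adjusted p = 0.0338; 0.0619 to 0.115 without each library in turn, 0.175 with exact matches alone and 0.106 with no filter).

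Glutathione synthesis and the regulators of these genes were read in the same way. Of 5 tested genes for glutathione synthesis and turnover, the 1 that rose was Gclc, which encodes the catalytic subunit of the first step, at 9.89, 10.4 and 11.5 FPKM in controls against 24.1, 18.7 and 26.4 FPKM with dNKAP RNAi (limma adjusted p = 0.0238; 0.0725 to 0.104 without any 1 library other than dNKAP RNAi replicate 2, and 0.139 with exact matches alone). The limma adjusted p of Gclc was 0.0750 with no filter and 0.0914 with a replicate block. The list median was -0.17. Of the regulators, cnc was at 42.0 ± 4.13 and 40.3 ± 24.0 FPKM, its inhibitor Keap1 at 6.74 ± 0.784 and 8.83 ± 1.07 FPKM, and its partner maf-S at 78.7 to 85.9 and 81.8 to 93.2 FPKM, and none of the 3 passed. The cnc value sums all transcripts of the gene, so the form that encodes CncC was not measured on its own. None of 11 tested antioxidant enzymes passed (list median -0.02), among them Sod1 at 517 ± 31.5 and 452 ± 35.8 FPKM and Prx2 at 468 ± 61.5 and 604 ± 39.4 FPKM. Of 8 related proteins outside the naming rule 6 were tested and none passed, all 6 with a lower mean log2 value, though gfzf and Clic were above 0 in 1 control library alone. AIMP3, a component of the multi-tRNA synthetase complex, was at 53.6 ± 5.38 and 38.3 ± 0.838 FPKM without overlap (limma adjusted p = 0.0566); it passed when genes listed at 0 in any library were left out (0.0436), after quantile normalization (0.0334) and median-ratio scaling (0.0295), and without control replicate 2 (0.0182). The most abundant, eEF1gamma and fax, were at 1969 ± 43.5 and 1834 ± 69.1 FPKM and at 712 ± 202 and 356 ± 31.2 FPKM in controls and dNKAP RNAi.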

How the data were processed

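The authors deposited 1 transcript table per library, in the layout Cuffcompare writes for transcripts assembled from 1 library, per the file headers. Per the labels' protocols, Trizol was used for RNA and a NextSeq instrument for sequencing, with 3 libraries of each genotype. The FPKM values, each with a lower and an upper bound, are those the authors deposited. The deposited read depth is a coverage signal per base without scaling between libraries, per the file headers; a deposited column that gives a transcript as a percent of the major transcript was not used. The submitters' processing notes name FastQC, HTSeq, DESeq and the build dm6. Not given in the sources used here are versions, aligner, annotation release and strand use. Without counts in any column, the test for normalized values was used.

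Gene values are FPKM summed over class codes for exact match, contained fragment, shared junction and other exonic overlap; the other codes held 0.267% to 3.70% of each library's FPKM. Names and coordinates came from the Ensembl annotation of the same assembly; 17429 of 17525 genes found a name, 149 of the older identifiers by way of a transcript. The comparison used limma 3.58.1 in R 4.3.3 on log2(FPKM + 0.5), with the prior variance following the mean level, for genes with a mean of 1 FPKM or more in the 6 libraries. It was two-sided and was tested on simulated data. Clusters were members whose lower ends lie within 20 kb of the next. Tables were built in Python 3.11.15 (numpy 2.4.6, pandas 2.3.3) and drawn with matplotlib 3.10.9.

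The genes, lists and tests were chosen with earlier results of these data known, and no p-value is adjusted over the family alone. All 35 members are named; from each related list the members past the threshold are named, at most 4, or the 2 most abundant. 2 listed names had no match. Neighbours of the clusters are counted by distance. Keap1, AIMP3, gfzf, Clic, Cyp9f3, Cyp9f2, DNAlig3, Act5C and the marker genes with values were singled out after their values were seen. Protein and promoter sequences were not used here. For transcripts of 10 to 50 FPKM the deposited bounds lay, at the median, 7.47% to 8.81% from the value; they cover the estimate within a library, not the spread between replicates.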

Additional observations from a re-analysis of the deposited data

Results flagged for a closer look

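A transcript inside an intron of GstT4 was left out of the gene value because of its class code, and it was at 24.3 FPKM in dNKAP RNAi replicate 1 and absent from the tables of the other 5 libraries, controls included. It stands out as signal outside the measurement used above, in 1 library of its group, and no test was made of it. GstT4 transcripts with another left-out class code were at 6.09 FPKM in control replicate 1 and 6.63 FPKM in control replicate 3, and absent elsewhere.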

How the results depend on the processing

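Of 332 values of the tested members under the alternatives, 290 kept their direction and their side of the threshold, 19 lost a call, 6 gained one and 17 changed sign. The number of members higher was 4, with 1 when no filter was used (GstT1), 6 among genes above 0 in every library (GstD5 and GstE1 added), 3 with exact matches alone (without GstE8) and 1 to 3 without each library in turn; the number lower was 0 (limma; 1 with genes above 0 in every library, after quantile normalization and with no trend, GstZ1 each time). Genes lower over all tested were 33, and 54 with no filter, 59 among genes above 0 in every library, 62 after quantile normalization and 61 after median-ratio scaling; genes higher were 209, and 120 to 148 without each library in turn. With exact matches alone the log2 ratio of the theta sum was 0.21 in place of 0.38. Same-numbered libraries of the groups deviated together only weakly (correlations 0.017, 0.068 and 0.064, against -0.116 to 0.055 for different numbers). Replicates 2 and 3 of either group correlated best with their own number, and replicate 1 of either group did not. Deviations within groups of 3 libraries cannot settle whether the numbers pair them. With a replicate block 72 genes were higher and 5 lower. The members then called higher were GstE3 (limma adjusted p = 0.0386) and GstE8 (0.0304), while GstT1 (0.136) and GstE6 (0.0636) were not called. The target CG6066 was not called lower with the block (0.134). Signs changed for members near no change or listed at 0: after quantile normalization GstE12 was at 0.078, GstO2 at 0.028 and GstT2 at -0.12, and with exact matches alone GstT4 was at -0.15 and GstT2 at -0.33. Without each library in turn the log2 change ran from -0.11 to 0.028 for GstE12, -0.030 to 0.020 for GstO2, -0.057 to 1.44 for GstO3, -2.73 to 2.68 for GstS1 and -1.02 to 1.05 for GstT2. The cause of these differences was not tested. Quantile normalization was not recomputed for class sums.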

Other observations

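The tables hold 2 kinds of value of 0 for the family. GstE2, GstE14, GstD8 and GstD11 were listed at 0 with an upper bound of 0 in each library where they had no value. GstD9, GstE9, GstE10, GstE11, GstE13 and GstT3 were listed at 0 in all 6 libraries with upper bounds above 0, between 0.0770 and 0.183 FPKM, and GstE7, GstS1 and GstT2 had bounds of the same kind where they were listed at 0. Act5C, at 0 in all libraries, also had an upper bound above 0, 0.0436 FPKM at most. Over all genes 6840 were listed at 0 in every library, and 2733 of these had a bound above 0. Whether the 6 members are silent in the disc was not tested and cannot be read from the value of 0.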
